A study of Mus musculus with 12 samples.

Results

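The 10 genes described here belong to the circadian clock, and they were taken by name from the 30630 mouse genes listed for each tumor. They are Arntl, Per1, Per2, Per3, Cry1, Nr1d1, Nr1d2, Dbp, Tef and Ciart, each found under 1 Ensembl identifier of the GENCODE M21 annotation. RNA-Seq was performed on 12 tumors of CT-26 cells, a colon carcinoma line of mouse origin, that had been injected under the skin of the right flank of male BALB/c mice bought at 4 to 6 weeks of age. The control group (n = 6) did not swim, and the swimming group (n = 6) was made to swim 2 times a day, 6 days a week, for 3 weeks. Each tumor came from a different mouse, and all mice carried the tumor. Expression is given in FPKM, a fragment number divided by gene length and by sequencing depth, and tests used log2(FPKM + 1). The question was whether the groups differ in the apparent phase of the clock. The hour of tissue collection and the time since the last swim are not given in the sources used here, so a difference in phase and a difference in collection time cannot be told apart.

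The clock is a feedback loop of transcription that runs in nearly every cell and takes about a day. ARNTL (also called BMAL1) pairs with CLOCK or NPAS2, binds E-boxes and switches on the Per, Cry, Nr1d, Dbp, Tef and Ciart genes. PER and CRY proteins then silence ARNTL and CLOCK, while NR1D1 and NR1D2 (REV-ERB alpha and beta) silence Arntl itself through ROR elements. In mouse peripheral tissues, Arntl peaks opposite to Nr1d1, Dbp, Tef, Ciart and the Per genes, which are called evening genes here, and Cry1 follows them with a delay. A tissue moved along the cycle may therefore show Arntl and the evening genes moving in opposite directions. Per1 is also switched on directly by glucocorticoids and by cAMP signaling, independently of the loop.

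Relative depth, read from the most frequent ratio of weak values to those of control 1, was 0.693 for control 2, while all other tumors had 0.871 to 1. Control 1 and control 2 stand apart from the other control tumors in several clock genes, so the fold changes, counts and spreads that rest on them are also given without them. All 10 clock genes passed the filter of 0.1 FPKM in 6 tumors, so none of them was left out. In these tumors of a carcinoma line Krt18 was 5.89 to 14.8 FPKM, while the epithelial genes Epcam, Cldn7 and Cdh1 reached at most 0.177, 0.0494 and 0.43 FPKM. Krt8 ranged from 1.86 FPKM to 129 FPKM in control 4, where the next highest tumor had 19.9 FPKM, and Krt19 was at most 0.757 FPKM. In bulk tumor RNA, fewer cells of a type and less RNA per cell cannot be told apart.

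Promoter windows from RefSeq (GRCm38.p6, 250 bases before to 50 after an annotated start) were searched on both strands, because the genes are known for sharing these elements. A window was present for 9 of the 10 genes, and Per2 was not matched. The letters searched were CACGTG (E-box), CACGTT (a weaker E-box variant), TTANGTAA (D-box, bound by DBP and TEF), TAGGTCA (ROR element), TGACGTCA (cAMP response element) and the glucocorticoid response element, which is AGAACA and TGTTCT with 3 free bases between them. No printed match overlaps another motif, and a match is a description of the letters only. The sequences below are shown because they place the members in their loops, and capitals mark the match.
Per1 E-box, chr11:69098771-69098800, plus strand, in an intron of the annotated gene: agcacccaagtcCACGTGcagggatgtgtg
Ciart E-box, chr3:95882255-95882284, minus strand: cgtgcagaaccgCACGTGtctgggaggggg
Ciart E-box, chr3:95882327-95882356, minus strand: tgcatctagagtCACGTGttgccggtaagc
Cry1 E-box, chr10:85185097-85185126, minus strand: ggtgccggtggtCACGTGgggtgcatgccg
Tef E-box, chr15:81811264-81811293, plus strand, in an intron: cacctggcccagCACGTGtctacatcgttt
Nr1d1 E-box variant, chr11:98775388-98775417, minus strand: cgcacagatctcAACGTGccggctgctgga
Per3 D-box, chr4:151044805-151044834, minus strand: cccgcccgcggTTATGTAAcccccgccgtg
Per3 D-box, chr4:151044852-151044881, minus strand: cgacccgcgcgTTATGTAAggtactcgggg
Arntl ROR element, chr7:113207530-113207558, plus strand, in an exon: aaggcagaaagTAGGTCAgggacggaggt

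The E-box was found in windows of 4 of the 9 genes, Per1, Cry1, Tef and Ciart, and in 7.17% of all 32544 distinct windows. Its variant was found in 2 of the 9 genes, Cry1 and Nr1d1, and in 4.71% of windows. The D-box was found for Per3 and in 2.29% of windows, and the ROR element for Arntl and in 2.61%. The cAMP response element (1.8% of windows) and the glucocorticoid response element (3 windows in all) were not matched in the windows of the 9 genes. No match was found for Dbp or Nr1d2, which says only that these letters are not in these windows.

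Per1 was the clock gene with the clearest difference between the groups. Its product is a repressor of the loop (chromosome 11, 69095217 to 69109960 in GRCm38, ENSMUSG00000020893, 6 annotated transcripts). Per1 was 32.2, 30.9, 18.5, 15.1, 9.99 and 19.8 FPKM in control 1 to 6, and 11.0, 7.62, 12.3, 8.83, 7.52 and 11.2 FPKM in swimming 1 to 6. All 6 swimming tumors were below the control median of 19.2 FPKM and 3 were below the lowest control tumor, control 5, which was the only control within the swimming range. The mean was 21.1 ± 8.8 FPKM in control and 9.76 ± 2.04 FPKM in swimming tumors (SD, n = 6 each). The log2 fold change was -0.96 (standard error 0.24, 95% interval -1.48 to -0.44). By limma its unadjusted p was 0.00157, the 22nd smallest of 19018 genes tested, and its two-sided exact permutation p was 0.00866. After Benjamini-Hochberg adjustment over all 19018 genes the adjusted p by limma was 0.889, so the difference did not pass the adjusted threshold. With control 1 and control 2 left out, the log2 fold change of Per1 was -0.63 (limma, unadjusted p = 0.00726, adjusted p = 0.715).

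**Figure D1:**
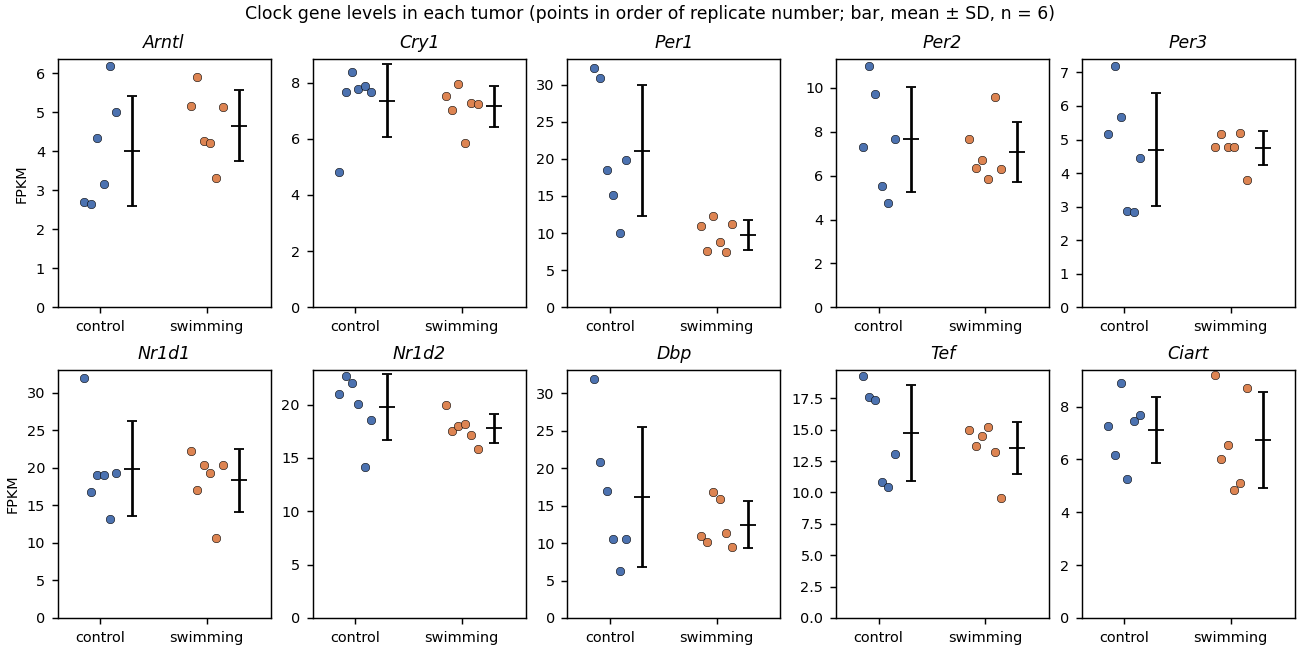
FPKM (y axis) of the 10 clock genes in each of 6 control and 6 swimming tumors, with points ordered by replicate number and the mean ± SD beside them. Every swimming tumor lies below the control median for Per1 (19.2 FPKM), and also for Nr1d2 (20.6 FPKM) and Tef (15.2 FPKM). For Per1, 3 swimming tumors lie below every control tumor, and no gene separates the groups fully.

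The other Per genes, which encode repressors of the same family, gave no unadjusted p below 0.05. Per2 was 7.29, 11.0, 9.73, 5.55, 4.75 and 7.65 FPKM in control 1 to 6, and 7.67, 6.36, 6.7, 5.84, 9.59 and 6.3 FPKM in swimming 1 to 6. Every swimming value of Per2 fell inside the control range, and the log2 fold change was -0.07 (95% interval -0.44 to 0.30, limma unadjusted p = 0.688). Per3 was 5.16, 7.18, 5.67, 2.88, 2.85 and 4.45 FPKM in control 1 to 6. In swimming 1 to 6 it was 4.79, 5.17, 4.78, 4.77, 5.19 and 3.79 FPKM, all of them inside the control range. Its log2 fold change was 0.06 (95% interval -0.30 to 0.43, limma unadjusted p = 0.721). The intervals leave room for changes of Per2 and Per3 of up to about -0.44 and 0.43 on the log2 scale.

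Per1 was then set against Per2 within each tumor, a comparison chosen after the values were seen and therefore given without a test. The log2 value of Per1 minus that of Per2 was 2.003, 1.41, 0.87, 1.298, 0.93 and 1.27 in control 1 to 6. It was 0.47, 0.23, 0.79, 0.52, -0.31 and 0.75 in swimming 1 to 6. On this difference the groups did not overlap, with a mean of 1.296 ± 0.41 (SD) among control and 0.41 ± 0.41 (SD) among swimming tumors. By FPKM, Per1 had the highest mean of the 10 genes in the control group and the fifth in the swimming group. In the control group its mean lay within 1 SD of those of Nr1d1 (19.9), Nr1d2 (19.8), Dbp (16.2) and Tef (14.8 FPKM).

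Arntl, the activator of the loop (chromosome 7, 113207465 to 113314126, ENSMUSG00000055116), had the lowest mean level of the 10 genes in both groups. It was 2.7, 2.65, 4.34, 3.17, 6.18 and 5 FPKM in control 1 to 6, and 5.17, 5.89, 4.25, 4.2, 3.31 and 5.13 FPKM in swimming 1 to 6. Control 1 and control 2 were lowest and control 5 was highest of all 12 tumors, so the swimming values lay inside the control range. The mean was 4.01 ± 1.42 FPKM in control and 4.66 ± 0.915 FPKM in swimming tumors (SD, n = 6 each). Its log2 fold change was 0.21 (95% interval -0.17 to 0.58, limma unadjusted p = 0.253, exact permutation p = 0.299). Leaving out control 1 and control 2 brought it to 0.00784. Cry1, a repressor that acts late in the cycle, was 7.36 ± 1.28 FPKM in control and 7.15 ± 0.716 FPKM in swimming tumors. Control 1 had 4.8 FPKM of Cry1, and the other 5 control tumors lay between 7.67 and 8.38 FPKM. The log2 fold change of Cry1 was -0.02 (95% interval -0.26 to 0.21).

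Nr1d1 and Nr1d2 encode nuclear receptors that repress Arntl. Nr1d1 (chromosome 11, 98767932 to 98775333) was 32, 16.8, 19, 19, 13.2 and 19.3 FPKM in control 1 to 6, and 22.2, 17.0, 20.4, 19.3, 10.6 and 20.4 FPKM in swimming 1 to 6. Control 1 was the highest and swimming 5 the lowest of the 12 tumors, and the remaining tumors of both groups were intermixed. The log2 fold change of Nr1d1 was -0.10 (95% interval -0.52 to 0.33, limma unadjusted p = 0.627). Its sign turned without control 1 (0.0442) and without swimming 5 (0.0426). Nr1d1 shares 263 exonic bases with Thra on the other strand, and Thra was 10.6 ± 1.62 FPKM in control and 10.3 ± 0.986 FPKM in swimming tumors. Nr1d2 was 19.8 ± 3.08 FPKM in control and 17.8 ± 1.37 FPKM in swimming tumors. All 6 swimming tumors were below the control median of Nr1d2 (20.6 FPKM), and all were inside the control range, which control 5 extended down to 14.2 FPKM. The log2 fold change of Nr1d2 was -0.14 (95% interval -0.35 to 0.07, limma unadjusted p = 0.188). Without control 5 it was -0.22 with an unadjusted p of 0.00548, and the adjusted p over all genes stayed above 0.05.

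Dbp and Tef encode related leucine zipper factors that carry the rhythm to D-box genes, and Dbp was the most variable of the 10 genes. Dbp (chromosome 7, 45705088 to 45710203, ENSMUSG00000059824) was 31.9, 20.8, 17, 10.5, 6.22 and 10.5 FPKM in control 1 to 6, and 11, 10.1, 16.9, 15.9, 11.4 and 9.54 FPKM in swimming 1 to 6. The highest control tumor had 5.13 times the level of the lowest, and all swimming values fell between them. Its log2 fold change was -0.21 (95% interval -0.86 to 0.45) and its limma unadjusted p was 0.513. It was 0.0174 without control 1 and 0.20 when control 2 was left out as well, so its sign rests on these tumors. Dbp shares 539 exonic bases with Sphk2 on the other strand, which was 9.49 ± 1.58 FPKM in control and 8.58 ± 1.72 FPKM in swimming tumors. Tef was 14.8 ± 3.81 FPKM in control and 13.5 ± 2.09 FPKM in swimming tumors, a log2 fold change of -0.10 (95% interval -0.43 to 0.24). All 6 swimming tumors were below the control median of Tef, 15.2 FPKM, and swimming 6 was below all control tumors at 9.57 FPKM.

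Ciart, also called CHRONO, encodes a repressor of ARNTL and CLOCK. It was 7.28, 6.15, 8.89, 5.27, 7.44 and 7.68 FPKM in control 1 to 6, and 9.18, 6, 6.55, 4.85, 5.12 and 8.72 FPKM in swimming 1 to 6. Swimming tumors held both ends of the range, with swimming 1 above and swimming 4 and swimming 5 below all control tumors. Its log2 fold change was -0.09 (95% interval -0.41 to 0.24, limma unadjusted p = 0.573).

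In all, 8 of the 10 clock genes had a negative and 2 a positive log2 fold change, where 51.7% of all genes tested were positive. The median of the clock genes was -0.09, against 0.00387 over all genes tested, and it was 0.02 without control 1 and control 2. The clock genes vary together, and several of them changed sign when single tumors were left out. Before adjustment, limma's p was below 0.05 for 1 clock gene that was lower, Per1, where 2.46% of all genes tested were called lower. The same threshold was passed by 0 clock genes that were higher, where 3.11% of all genes were called higher. With limma's p adjusted over all genes, 0 clock genes passed 0.05, as did 0.0% of all genes (smallest adjusted p 0.204). No clock gene separated the groups without overlap, where 0.0684% of all genes did so with lower and 0.0789% with higher values after swimming.

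**Figure D2:**
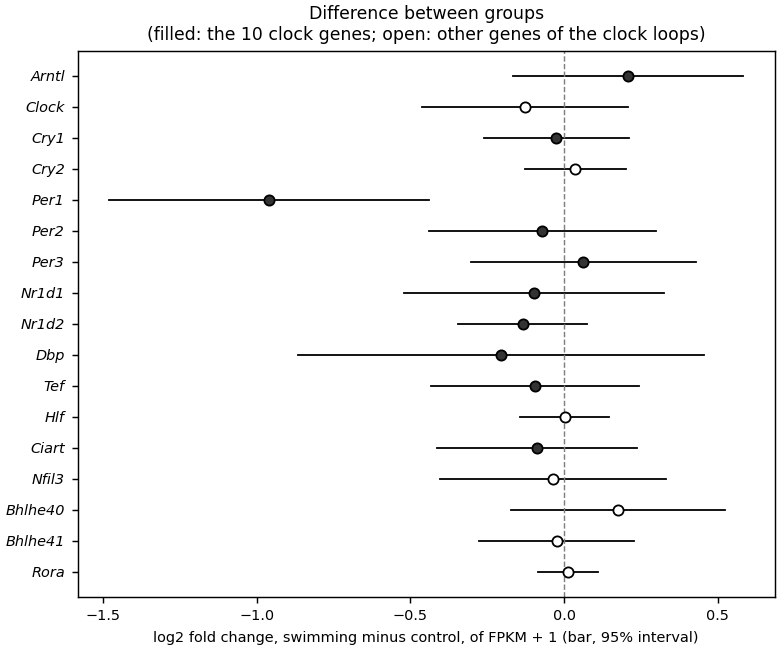
Log2 fold change (x axis, swimming minus control, of FPKM + 1) with its 95% interval for the 10 clock genes (filled) and 7 other genes of the clock loops (open). The interval lies wholly below 0 for Per1 (-1.48 to -0.44) and includes 0 for each of the other genes drawn.

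Arntl and the evening genes were then set against each other as a rough guide to apparent phase. Without a time series, such a difference cannot separate phase from the strength of the rhythm or the mix of cells. Phases on either side of a peak can also give the same difference, so similar values do not show equal phase. For each tumor, log2(FPKM + 1) of Arntl was subtracted from the mean log2 value of the 8 evening genes, Nr1d1, Nr1d2, Dbp, Tef, Ciart, Per1, Per2 and Per3. The difference was 2.20, 2.11, 1.45, 1.33, 0.30 and 1.04 in control 1 to 6, and 1.01, 0.61, 1.22, 1.10, 1.26 and 0.80 in swimming 1 to 6. Control 1 and control 2 had the highest values and control 5 the lowest, and the 6 swimming tumors lay between them. All 6 swimming tumors were below the control median of 1.39, and all were inside the control range. Only 1 control tumor, control 6, was inside the swimming range. The mean was 1.41 ± 0.71 (SD) among control and 1.00 ± 0.25 (SD) among swimming tumors, so the mean difference of -0.41 was smaller than the SD of the control group. As a score over the chosen genes it was not tested. Without control 1 and control 2 the difference was -0.03, and without Per1 among the evening genes it was -0.30. Without control 5 the difference in means was -0.63. Control 1 and control 2 are the highest on this same difference, so leaving them out was bound to bring the group means closer. The -0.03 therefore does not show what the lower mean of the swimming group rests on. Without control 1 alone the difference in means was -0.25, and without control 2 alone it was -0.27. That all swimming tumors lay inside the control range rested on control 5.

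Pairs of single genes that include Arntl gave a similar picture, with lower swimming means and all swimming tumors inside the control range. For Dbp minus Arntl, however, 4 swimming tumors were below the control median, and 3 control tumors lay inside the swimming range. The log2 value of Dbp minus that of Arntl ran from 0.01 (control 5) to 3.15 (control 1) among control tumors, and from 0.69 to 1.77 among swimming tumors. For Nr1d1 minus Arntl the ranges were 0.99 to 3.16 and 1.38 to 2.03, again with all swimming tumors inside the control range. Per2 minus Nr1d1, a pair that peaks in sequence rather than in opposition, had a mean of -1.27 ± 0.51 (SD) among control and -1.24 ± 0.55 (SD) among swimming tumors. Swimming 5 was apart on this pair at -0.13, with much Per2 and little Nr1d1. Cry1 minus Dbp ran from -2.51 to 0.30 among control tumors, with swimming tumors between -1.31 and -0.35.

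**Figure D3:**
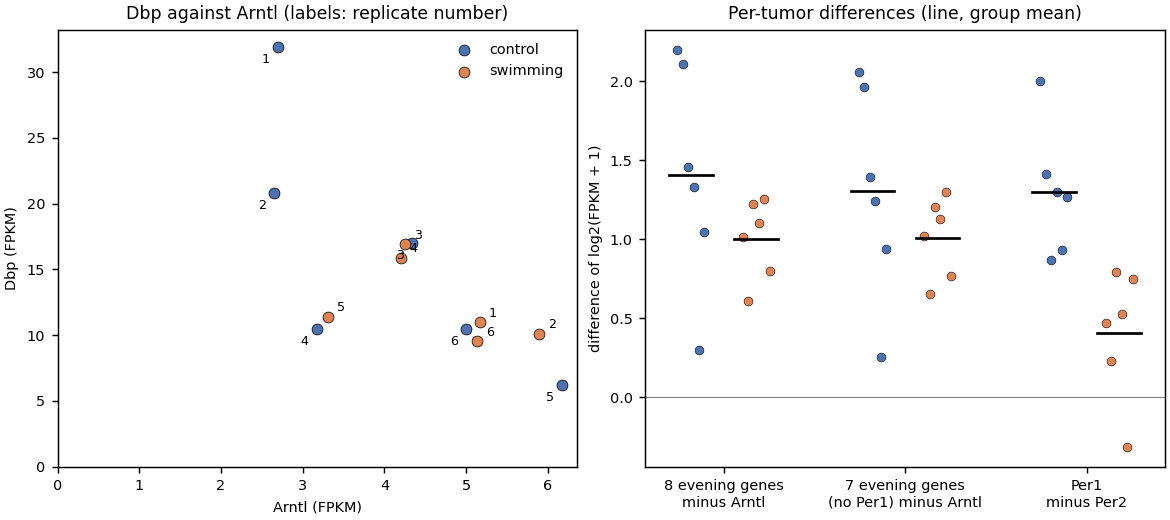
Left, Dbp against Arntl in FPKM for the 12 tumors, labelled by replicate number. Right, differences of log2(FPKM + 1) per tumor for the evening genes minus Arntl, with and without Per1, and for Per1 minus Per2, with group means as lines. Control tumors span 0.30 to 2.20 on the first difference and enclose all swimming tumors, while on Per1 minus Per2 the groups do not overlap.

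The spread within the groups differed in size. The SD of the log2 values was larger in the control group for 9 of the 10 clock genes, all except Ciart. The median ratio of the control SD to the swimming SD was 1.84 for the clock genes, against 1.07 for the 12789 genes at a mean of at least 1 FPKM, of which 55.1% had the larger SD in the control group. With control 1 and control 2 left out, the control SD was larger for 7 of the 10 clock genes, with a median ratio of 1.43 against 0.98 for all genes at that level. For Dbp the SD was 0.78 among control and 0.32 among swimming tumors, and for Per3 it was 0.44 and 0.14. The clock genes vary together, so the 9 of 10 do not count as 9 separate observations, and this difference in spread was not tested. Around the group means, Dbp was more variable than 97.3% and Per1 than 95.4% of the genes at 1 FPKM or more, while Nr1d2 was more variable than 63.5%.

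Across the 12 tumors most pairs of evening genes had a positive correlation, and most pairs of Arntl with an evening gene had a negative one. All 45 pairs were compared by their log2 values, with two-sided permutation tests and Benjamini-Hochberg adjustment over the 45. Among the 28 pairs of evening genes, 25 had a positive Pearson's r, and among the 8 pairs of Arntl with an evening gene, 7 had a negative r. The exception was Arntl with Ciart, at an r of 0.413, and r of Ciart with the other evening genes ran from -0.0824 to 0.383. Of the 8 pairs with Arntl, 1 had an adjusted permutation p below 0.05 by r and 0 by rho. The share of positive pairs among other genes was not computed, and the cause of these relations was not tested. Dbp and Tef were most closely related (r = 0.86, permutation p = 0.00019, adjusted 0.00855), and their rho was 0.902 (permutation p = 0.00015, adjusted 0.00675). Leaving out control 1 and control 2, r between Dbp and Tef was 0.771, and it was 0.939 within the control group and 0.606 within the swimming group. Per2 and Per3 followed (r = 0.84, permutation p = 0.00066, adjusted p 0.0149), with a rho of 0.853 (permutation p = 0.0008, adjusted p 0.018). Without control 5 and control 2, r between Per2 and Per3 was 0.658, and it was 0.964 and 0.426 within the control and swimming groups. Dbp and Arntl varied in opposition (r = -0.74, permutation p = 0.00507, adjusted p 0.0456), with a rho of -0.769 (permutation p = 0.00474, adjusted p 0.0535). With control 1 and control 2 left out again, r between Dbp and Arntl was -0.488, and it was -0.805 within the control group and -0.477 within the swimming group. In all, 6 pairs had an adjusted permutation p below 0.05 by r and 2 by rho, and the other 3 pairs by r alone were Per3 with Tef, Nr1d2 with Dbp and Nr1d2 with Tef.

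Within the control group the evening genes had a median r of 0.747 over their 28 pairs, 26 of them positive, and Arntl had a median r of -0.605 with them. Within the swimming group the medians were 0.134, with 18 of 28 pairs positive, and -0.0608. Each rests on 6 tumors, and the difference between the groups was not tested. The 4 control tumors left after control 1 and control 2 are too few for a correlation of their own. Over the 10 remaining tumors of both groups, the evening genes had a median r of 0.437 with 25 of 28 pairs positive, and Arntl had a median r of -0.122 with them. Tef kept an r of 0.78 with Per3 and of 0.861 with Nr1d2 in the swimming group. Per1, by contrast, had an r of 0.833 with Per3 among control tumors and of -0.614 among swimming tumors.

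**Figure D4:**
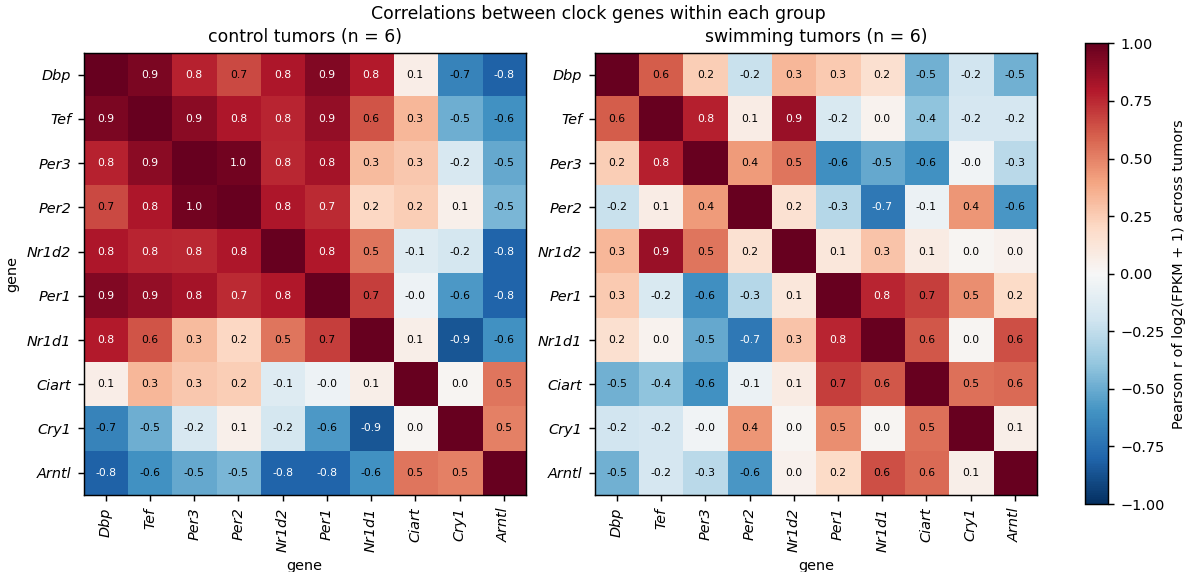
Pearson's r of log2(FPKM + 1) between the 10 clock genes (both axes) within the 6 control tumors and within the 6 swimming tumors, on a color scale from -1 to 1. Most evening genes are positively related to one another and negatively to Arntl in the control group, with a median r of 0.747 and -0.605, while the swimming group shows medians of 0.134 and -0.0608.

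The other genes of the core loop came from a list of 10, of which 8 were tested, and 0 had a limma p below 0.05 before adjustment in either direction, against 5.56% of all genes. Their median log2 fold change was 0.00688. Clock, the partner of Arntl, was 8.48 ± 1.9 FPKM in control and 7.7 ± 1.79 FPKM in swimming tumors. Npas2, the alternative partner, reached at most 0.116 FPKM in any tumor and was not tested. Cry2, a repressor, was 6.15 ± 0.74 FPKM and 6.32 ± 0.514 FPKM in the control and swimming groups. Nfil3, which competes with DBP and TEF for D-boxes, was 15.02 ± 2.64 FPKM and 14.9 ± 4.01 FPKM. Hlf, the relative of Dbp and Tef, was 0.216 ± 0.113 FPKM and 0.215 ± 0.0749 FPKM. Bhlhe40, a repressor at E-boxes, was the most abundant at 26.2 ± 4.32 FPKM and 30.2 ± 7.05 FPKM, and its relative Bhlhe41 was 6.87 ± 1.21 FPKM and 6.72 ± 1.09 FPKM. Rora, an activator at ROR elements, was at most 0.191 FPKM. The 95% intervals of the log2 fold change were -0.46 to 0.21 for Clock, -0.13 to 0.20 for Cry2 and -0.17 to 0.52 for Bhlhe40.

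Kinases and ubiquitin ligases set the pace of the clock by marking PER and CRY proteins. Of 12 such genes, 10 were tested, and 1 was lower and 0 were higher at a limma p below 0.05 before adjustment, where 2.46% and 3.11% of all genes were called. It was Csnk2a2, a catalytic subunit of casein kinase 2, at 8.99 ± 0.237 FPKM in control and 8.26 ± 0.51 FPKM in swimming tumors, a log2 fold change of -0.11 (adjusted p = 0.889). The log2 fold changes of the 10 genes lay between -0.11 and 0.03, and without control 1 and control 2 the count was 0. Among 8 rhythmic output genes, 2 were higher and 1 was lower at an unadjusted p below 0.05, against 3.11% and 2.46% of all genes. Nampt, the rate-limiting enzyme of the NAD salvage pathway, was 21.8 ± 1.55 FPKM and 25.4 ± 3.85 FPKM (log2 fold change 0.20). Pfkfb3, a regulator of glycolysis, was 2.39 ± 1.15 FPKM and 3.55 ± 0.764 FPKM (log2 fold change 0.48). The gene that was lower, Tsc22d3, also belongs to the next list. Without control 1 and control 2, Pfkfb3 was still called higher and Tsc22d3 lower, and Nampt was no longer called. The mean score of the output genes was related to Dbp (r = 0.866, permutation p = 0.00019, adjusted 0.00646 for 34 relations of scores with Per1 or Dbp), with a rho of 0.769 (permutation p = 0.00513, adjusted 0.0872). It was also related to Per1 (r = 0.818, permutation p = 0.00135, adjusted 0.0153), with a rho of 0.706 (permutation p = 0.0129, adjusted 0.146). With control 1 and control 2 left out, these r were 0.695 for Dbp and 0.507 for Per1. They were 0.982 and 0.956 within the control group, and 0.416 and 0.523 within the swimming group. With Tsc22d3 removed from the score, r was 0.641 for Dbp (permutation p = 0.0241, adjusted 0.164) and 0.235 for Per1 (permutation p = 0.46, adjusted 0.7). Without Tsc22d3, r was 0.933 for Dbp and 0.86 for Per1 within the control group, and 0.344 and 0.387 within the swimming group.

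Genes induced by glucocorticoids were examined beside Per1, which is one of them. Of 8 such genes, 7 were tested, and 4 were lower at a limma p below 0.05 before adjustment, against 2.46% of all genes called lower, while 0 were higher. The median log2 fold change of the list was -0.30. Without control 1 and control 2 the list had 3 lower genes, Klf9, Sgk1 and Tsc22d3, against 2.78% of all genes, and a median of -0.25. Tsc22d3, the glucocorticoid-induced leucine zipper gene, was 52.0, 60.8, 39.3, 19.1, 19.4 and 27.8 FPKM in control 1 to 6, and 17.8, 11.6, 19.1, 15.3, 18.5 and 16.5 FPKM in swimming 1 to 6. Control 1 to 3 were the highest tumors, and 5 of the 6 swimming tumors were below every control tumor. The log2 fold change of Tsc22d3 was -0.98 (95% interval -1.55 to -0.41), and limma gave it an adjusted p of 0.889. With control 1 and control 2 left out it was -0.60 (limma, unadjusted p = 0.0113, adjusted p = 0.715). Sgk1, a kinase, was 35.2 and 30.1 FPKM in control 1 and control 2, between 12.1 and 15.4 FPKM in the other control tumors, and between 10.8 and 13.3 FPKM in swimming tumors. Its log2 fold change was -0.64 (limma, unadjusted p = 0.0151, adjusted p = 0.889), and leaving out control 1 and control 2 reduced it to -0.25 (limma, unadjusted p = 0.00808, adjusted p = 0.715).

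No match to the glucocorticoid response element was found for Tsc22d3, Klf9 or Errfi1, which were also lower. A start of Sgk1 carries 1 of the 3 windows with the element, which is shown because it is its textbook form. Such a match describes the letters only.
Sgk1 glucocorticoid response element, chr10:21993694-21993722, plus strand, in an intron: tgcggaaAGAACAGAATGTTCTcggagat

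Klf9, a zinc finger factor with a rhythm of its own, was 19.7 ± 1.76 FPKM in control and 13.4 ± 2.63 FPKM in swimming tumors. Its log2 fold change was -0.53 (95% interval -0.75 to -0.32, limma adjusted p = 0.585), and 5 of 6 swimming tumors were below every control tumor. Errfi1, an inhibitor of the EGF receptor, was 119 ± 15.2 FPKM and 96.8 ± 18.1 FPKM, which is -0.30 on the log2 scale (limma, unadjusted p = 0.026), and -0.27 without control 1 and control 2 (limma, unadjusted p = 0.085). Fkbp5, a chaperone that holds back the glucocorticoid receptor, was 39.3 ± 6.13 FPKM and 39.7 ± 6.03 FPKM, and the metallothionein Mt1 was 439.9 ± 84.4 FPKM and 439.7 ± 67.2 FPKM. The mean score of the list without clock genes was related to Per1 across the 12 tumors (r = 0.868, permutation p = 0.00039, adjusted 0.00663 for 34 relations), with a rho of 0.797 (permutation p = 0.00289, adjusted 0.0872). Without control 3 and control 1, r was 0.819, and it was 0.669 within the control group and 0.766 within the swimming group. With Dbp the same score had an r of 0.51 (permutation p = 0.0901, adjusted p 0.438) and a rho of 0.392 (permutation p = 0.211, adjusted p 0.781). That r was 0.0669 without control 3 and control 1, 0.823 among control and -0.242 among swimming tumors. Corticosterone was not measured, and the part of hormones in the level of Per1 was not tested.

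**Figure D5:**
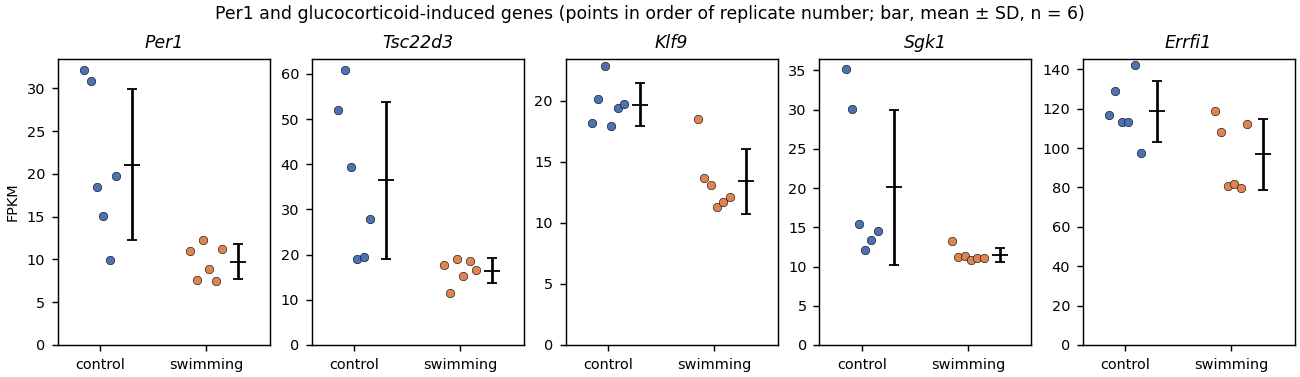
FPKM (y axis) of Per1 and of the 4 glucocorticoid-induced genes with an unadjusted p below 0.05 in 6 control and 6 swimming tumors, ordered by replicate number, with the mean ± SD. In Tsc22d3, Klf9 and Sgk1, 5 of 6 swimming tumors lie below every control tumor, and for Errfi1 3 of 6 do so.

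Immediate early genes, which respond to cAMP and growth signals as Per1 does, were examined next. Of 10 genes tested, 0 were lower and 1, Atf3, was higher at a limma p below 0.05 before adjustment (2.46% and 3.11% of all genes), at 2.71 ± 0.352 FPKM in control and 3.91 ± 1.07 FPKM in swimming tumors. The r of this list with Per1 was 0.323 (permutation p = 0.304, adjusted p 0.7), with a rho of 0.217 (permutation p = 0.499, adjusted p 0.93). Without swimming 4 and swimming 5 it was -0.0614, and within the control and swimming groups it was 0.2 and 0.603. Body temperature is another input to the clock, and of 8 temperature-responsive genes 2 were higher and 0 lower, against 3.11% and 2.46% of all genes. These were the heat shock genes Hspa1a, at 4.72 ± 1.32 FPKM and 8.74 ± 4.09 FPKM, and Hspa1b, at 14.5 ± 6 FPKM and 26.0 ± 11.1 FPKM. The 2 are near-identical copies whose reads may be divided between them, and without control 1 and control 2 neither had an unadjusted p below 0.05. The cold-induced genes Cirbp and Rbm3 had no unadjusted p below 0.05.

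Markers of other cell types were measured beside these results. Of 8 genes of T and NK cells, 8 had a positive log2 fold change and 3 (Cd3g, Trac and Cd8a) a limma p below 0.05 before adjustment, where 51.7% of all genes were positive and 3.11% were called higher. Without control 1 and control 2 the call was also made for Cd3e and Cd4, and the share of all genes called higher in that fit was not computed. Control 1 had the highest Cd3e (1.04 FPKM) and Cd4 (0.87 FPKM) of the control tumors, so leaving it out lowers the control means. The summed level of the T and NK cell genes was 14.8 to 31.8 FPKM in control and 13.4 to 43 FPKM in swimming tumors. No gene tested from the skeletal muscle, adipocyte, keratinocyte, endothelial, fibroblast, macrophage, B cell and epithelial lists had an unadjusted p below 0.05 with all tumors. Only 6 of 8 adipocyte, 1 of 6 keratinocyte, 2 of 4 B cell and 4 of 6 epithelial genes were tested. Col1a2 and Csf1r were higher at an unadjusted limma p below 0.05 without control 1 and control 2. The summed skeletal muscle level was 1.86 to 221 FPKM in control and 1.14 to 316 FPKM in swimming tumors, and that of adipocyte genes was 9.0 to 186 FPKM and 11.8 to 47.5 FPKM. Fibroblast genes summed to 186 to 792 FPKM and 221 to 759 FPKM. Control 1 had the highest adipocyte, B cell and fibroblast scores of the 12 tumors (2.608, 1.209 and 1.071). With the skeletal muscle score as a covariate, Per1 differed by -0.98 on the log2 scale (limma, unadjusted p = 0.00194). The r of Per1 with the skeletal muscle score was 0.0102 (permutation p = 0.975, adjusted p 0.993), and its rho was -0.00699 (permutation p = 0.991, adjusted p 0.991). This r was 0.162 without control 6 and swimming 5, and 0.41 and -0.192 within the control and swimming groups. The r of Dbp with the fibroblast score was 0.688 (permutation p = 0.013, adjusted p 0.11), and its rho was 0.671 (permutation p = 0.0202, adjusted p 0.172). It was 0.767 without control 1 and swimming 5, and 0.872 and 0.427 within the control and swimming groups. The part of these cells in the spread of Dbp was not tested.

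Genes outside the clock were ranked by their correlation with the mean standardised level of the 8 evening genes across the 12 tumors, as a description over 12779 genes. The closest were Cog7 (r = 0.938), E4f1 (0.923), Ccn2 (0.892), Kdelr3 (0.892) and Csad (0.863), and the most opposed were Phf23 (-0.856), Hist1h2af (-0.842), Arl8b (-0.84), CT010467.1 (-0.824) and D1Ertd622e (-0.812). Of the other clock, output and hormone-responsive genes that were listed, Tsc22d3 (r = 0.807, rank 27), Sgk1 (0.766, rank 44), Cry2 (0.764, rank 46), Wee1 (0.709, rank 109) and Bhlhe41 (0.681, rank 151) stood highest. Clock had an r of -0.282. The ranking was not repeated without control 1 and control 2, which had the highest Tsc22d3 and Sgk1 of the 12 tumors.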

How the data were processed

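The authors removed rRNA, trimmed adapters, mapped reads with HISAT2 (version 2.0.5 in the submitters' processing notes) and computed FPKM with StringTie (1.3.3). The authors deposited 1 FPKM value per mouse gene and tumor. The methods name hg38, while the processing notes also list GRCm38. Genes were named by identifier through GENCODE M21 on GRCm38, which lists 30542 of 30630 identifiers. FPKM does not hold read numbers, so the depth is unknown and counting errors could not be computed. The library kit is not stated to keep strand.

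Sample titles gave the group and replicate number of all 12 tumors. Genes that reached 0.1 FPKM in 6 or more tumors (19018) were kept, and their log2(FPKM + 1) was compared with limma 3.58.1 (R 4.3.3; lmFit and eBayes with trend, no covariate, Benjamini-Hochberg adjustment over all genes tested). Exact permutation tests were two-sided over all divisions into 6 and 6 (smallest possible p 0.00216), and correlations used 100000 permutations (smallest possible p 1e-05). Scripts were tested on simulated data. Python 3.11.15, pandas 2.3.3, scipy 1.17.1 and matplotlib 3.10.9 were used. The clock genes and lists were chosen with earlier results of these data known. Named genes are the 10 clock genes, 8 further loop genes (1 more is not reported here), list genes with an unadjusted p below 0.05, and the 5 genes most and 5 least like the evening genes. Others, and Per1 minus Per2, were named after their values were seen. The replicate numbers 1 to 6 occur in both groups, but the tumors come from different mice, and the deviations of same-numbered tumors had correlations of -0.32 to 0.00588.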

Additional observations from a re-analysis of the deposited data

Results flagged for a closer look

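Dixon's ratio, which compares the gap beside the most extreme tumor with the whole range, was computed for 38 sets of 6 values (the 10 clock genes, 8 further loop genes and the evening difference, in each group). It passed the critical value in 4 sets, against 1.9 by chance alone, and the clock genes are not independent of one another. Control 1 had 4.8 FPKM of Cry1, with the other control tumors at 7.67 FPKM or more, and 32 FPKM of Nr1d1, with the others at 19.3 FPKM or less. Control 1 thus had the most Nr1d1 and Dbp and the least Cry1 of the 12 tumors. It also had the most of the adipocyte genes Adipoq (12.6 FPKM, at most 3.69 in the others) and Cfd (103 FPKM, at most 16.8). The B cell gene Cd79a (2.67 FPKM, at most 0.541 in the others) and the fibroblast gene Col1a1 (247 FPKM, at most 235) were highest there as well. Swimming 6 had 3.79 FPKM of Per3, with the other swimming tumors at 4.77 FPKM or more, and 9.57 FPKM of Tef, with the others at 13.2 FPKM or more. No explanation of these values was tested.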

How the results depend on the processing

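The log2 fold change of Per1 stayed negative with limma's unadjusted p below 0.05 under every alternative run. These were pseudocounts of 0.1 and 0.01, no filter, a filter of 1 FPKM, quantile normalization, trimmed mean scaling, eBayes without trend, sample weights, the replicate block and the skeletal muscle score as a covariate. In those fits it lay between -1.03 and -0.94, and between -1.14 (without control 5) and -0.82 (without control 1) when 1 tumor was left out. Its smallest adjusted p over all alternatives was 0.325. With the replicate block the log2 fold change of Per1 was -0.96 with an unadjusted p of 0.0013, and the block changed no call among the clock genes. The count of clock genes lower at an unadjusted p below 0.05 ranged from 1 to 2 when each tumor was left out, and reached 2 without control 5, when Nr1d2 was added. The counts of clock genes that were higher, and that had an adjusted p below 0.05, were 0 throughout. With each tumor left out in turn, signs turned in 5 clock genes. Nr1d1 ranged from -0.20 (without control 5) to 0.0442 (without control 1) and was 0.0426 without swimming 5. Dbp ranged from -0.42 (without control 5) to 0.0174 (without control 1), and Per2 from -0.18 (without control 5) to 0.0332 (without control 2), with 0.000759 without control 3. Cry1 ranged from -0.13 (without control 1) to 0.0248 (without swimming 4), and was also above 0 without control 3. Per3 ranged from -0.0402 (without control 5) to 0.18 (without control 2), and was -0.0386 without control 4. Leaving out control 1 and control 2 together, chosen after the data were seen, gave 0.0337 for Nr1d1, 0.0734 for Tef, 0.0548 for Per2 and 0.20 for Dbp. The evening difference lay between -0.63 (without control 5) and -0.25 (without control 1) when 1 tumor was left out, and between -0.48 and -0.24 under other scalings, pseudocounts, covariates and choices of genes. Among these choices it was smallest with Clock and Npas2 beside Arntl, and it was -0.03 without control 1 and control 2. Relative depth was lowest in control 2, so its weak values rest on the fewest reads, and the cause of the other changes was not tested.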
